A study of Mus musculus with 125 samples.

Results

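Car4, Ednrb, Tmem100, Tbx2, Tbx3, Tbx4 and Hpgd are 7 genes linked to the endothelium of the lung, followed here across the blood vessels of the mouse by open chromatin and, in the brain, by single-cell RNA. They were taken as a named list, chosen with earlier results of these data known, and are 7 of 21887 protein-coding genes whose surroundings were measured. For each gene, every deposited peak of open chromatin (ATAC-seq, which cuts accessible DNA) that overlapped the gene or lay within 50 kb of it was collected from 66 peak lists. UMIs, each standing for 1 captured RNA molecule and given below as CPM (counts of a gene's UMIs scaled to a common total), were counted in 23709 of 42340 barcodes of 5 brain libraries, chosen as barcodes with at least 200 genes, at most 10% mitochondrial UMIs and at least 3 of Cdh5, Pecam1, Egfl7, Esam, Tie1 and Kdr, all general endothelial genes.

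The ATAC-seq libraries came from nuclei of brain, heart, kidney, liver, lung and retina of adult mice (2 months) and of pups labelled P6, and from brain, heart and trunk of E12 embryos. Nuclei labelled Endothelial (37 libraries: 12 adult, 14 P6, 11 E12) came from tissue in which tamoxifen had switched on a GFP reporter in the vasculature. Nuclei labelled Input (29 libraries) stand for the tissue as a whole. Both kinds come under the same protocol, in which pups received tamoxifen at P1 and P3, embryos through the dam at E10.5, and adults a week before collection. The protocol text gives P7 for the pups labelled P6 and E12.5 for the embryos. The driver of the reporter, the mouse strain and the step that separated nuclei labelled Endothelial from the rest are not given in the sources used here. The single-cell libraries, 1 per age, held cells bound to anti-CD31 beads from whole brain at E9.5, E12.5 and E16.5 and from cortex at P8 and in adults. No label says that replicate libraries came from separate animals, so p-values measure only the spread between these libraries, which may be technical.

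Gas crosses the lung through a capillary net built from large, thin endothelial cells called aerocytes and from general capillary cells, which can divide and replace them. Car4, a carbonic anhydrase held on the outer membrane, and Ednrb, the endothelin B receptor that clears endothelin and couples to nitric oxide release, are used as aerocyte markers. Hpgd encodes the dehydrogenase that inactivates prostaglandins, a task for which the lung circulation is known. Tmem100 is a small membrane protein induced by BMP9 and BMP10 through the receptor ALK1 and is needed for arterial endothelium. Tbx2, Tbx3 and Tbx4 are T-box transcription factors with roles in heart, limb and lung development, Tbx4 being best known from lung mesenchyme. Car4 is also known from capillaries of heart and brain.

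All coordinates are on mm10, the build in the submitters' processing notes, with gene positions from RefSeq (GRCm38.p6). Car4 lies at chr11:84957754-84966054, Ednrb at chr14:103814615-103844508, Hpgd at chr8:56294552-56321046 and Tmem100 at chr11:90030348-90036508. Tbx2 lies at chr11:85832615-85841948, Tbx3 at chr5:119670534-119684724 and Tbx4 at chr11:85886367-85916097. The windows of Tbx2 and Tbx4 overlap each other. Those of Car4 (Myo19, Usp32, Znhit3), Tbx2 (Bcas3) and Tmem100 (Pctp) also hold other genes, whose own sites cannot be told apart from those of the member. The windows of Ednrb, Hpgd and Tbx3 hold no other protein-coding gene.

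The promoters of Hpgd, Ednrb and Car4 are shown because their coverage by peaks differed between the 3 genes. Each runs from 250 bases before to 50 bases after the RefSeq start, 5′ to 3′ on the gene's own strand: chr8:56294302-56294601 (plus), chr14:103843652-103843951 (minus) and chr11:84957504-84957803 (plus). Capitals mark every match, on either strand, to 6 motifs: TATAAA of the TATA box, CCGGAA for ETS factors, TGTTTAC for forkhead factors, AGATAA for the zinc-finger factors of haematopoietic and endothelial cells, AGGTGT for T-box factors and GGCGCC for SMAD factors.
Hpgd: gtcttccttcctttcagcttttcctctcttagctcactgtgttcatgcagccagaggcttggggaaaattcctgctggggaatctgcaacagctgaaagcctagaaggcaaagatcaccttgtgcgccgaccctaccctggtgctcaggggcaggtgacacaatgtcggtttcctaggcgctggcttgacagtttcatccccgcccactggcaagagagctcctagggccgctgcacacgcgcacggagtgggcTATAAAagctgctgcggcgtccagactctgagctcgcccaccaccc
Ednrb: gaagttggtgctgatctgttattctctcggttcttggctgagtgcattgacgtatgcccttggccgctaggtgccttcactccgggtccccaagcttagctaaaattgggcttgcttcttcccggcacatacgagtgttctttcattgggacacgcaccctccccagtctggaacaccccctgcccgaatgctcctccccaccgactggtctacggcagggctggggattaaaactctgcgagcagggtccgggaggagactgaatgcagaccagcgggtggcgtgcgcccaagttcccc
Car4: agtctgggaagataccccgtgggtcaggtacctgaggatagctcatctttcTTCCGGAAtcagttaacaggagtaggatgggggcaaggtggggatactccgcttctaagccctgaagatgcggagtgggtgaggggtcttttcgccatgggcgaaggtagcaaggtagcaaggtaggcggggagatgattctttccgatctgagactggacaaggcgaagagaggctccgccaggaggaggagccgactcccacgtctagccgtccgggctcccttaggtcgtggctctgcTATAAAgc

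Hpgd and Car4 each hold 1 TATAAA, in Car4 at the far end of the window, and Car4 also holds CCGGAA read on both strands of overlapping letters. Of 32851 promoters of this length, 13.6% hold TATAAA or its reverse and 14.9% hold CCGGAA. Ednrb holds none of the 6, which says only that these letters are absent from this window. The GC content is 58% for Hpgd, 58.7% for Ednrb and 57.3% for Car4. RefSeq promoter entries were matched for 4 of the 7 genes, the other being Tbx4.

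The Hpgd promoter was covered by a peak in both adult lung and both adult liver endothelial libraries, in 1 of 2 from brain and 1 of 2 from kidney, and in none of the 4 from heart and retina. At P6 it was covered in 13 of 14 endothelial libraries and at E12 in 10 of 11. Input libraries had the peak in 9 of 10 adult and 16 of 16 P6 samples. Thus the adult endothelial lists were the ones in which this promoter was most often without a peak. The Ednrb promoter carried a peak in 9 of 12 adult endothelial libraries, missing in both from retina and 1 of 2 from lung, in 13 of 14 at P6 and in all 11 at E12. The Car4 promoter was rarely covered: 2 of 12 adult, 5 of 14 P6 and 4 of 11 E12 endothelial libraries. For Tbx4 the promoter had a peak in 0 of 12, 3 of 14 and 3 of 11. A missing peak in a short list is no proof of closed chromatin, and adult lists were shorter.

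Peak lists held 19464 to 144197 peaks. Adult lung endothelial libraries gave 30974 and 19464 peaks, the latter the shortest of the 66, P6 lung endothelial libraries 65908 and 60630, and the 5 lung inputs 34327 to 112753. Levels are therefore given as covered bases per Mb, the bases of a gene's window inside peaks per Mb inside all peaks of that library. Endothelial identity was checked with 11 general endothelial genes. Their summed level was 3499 to 3939 covered bases per Mb in adult lung endothelial libraries against 1834 to 1867 in adult lung input, and 3248 to 3355 against 1704 to 1894 at P6. In adult lung 4 of 11 rose over input, where 10.6% of all genes were called in either direction. In P6 lung 2 of 11 rose, where 4.29% were called in either direction. In bulk nuclei, fewer nuclei of a type and fewer open sites per nucleus cannot be told apart.

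**Figure D1:**
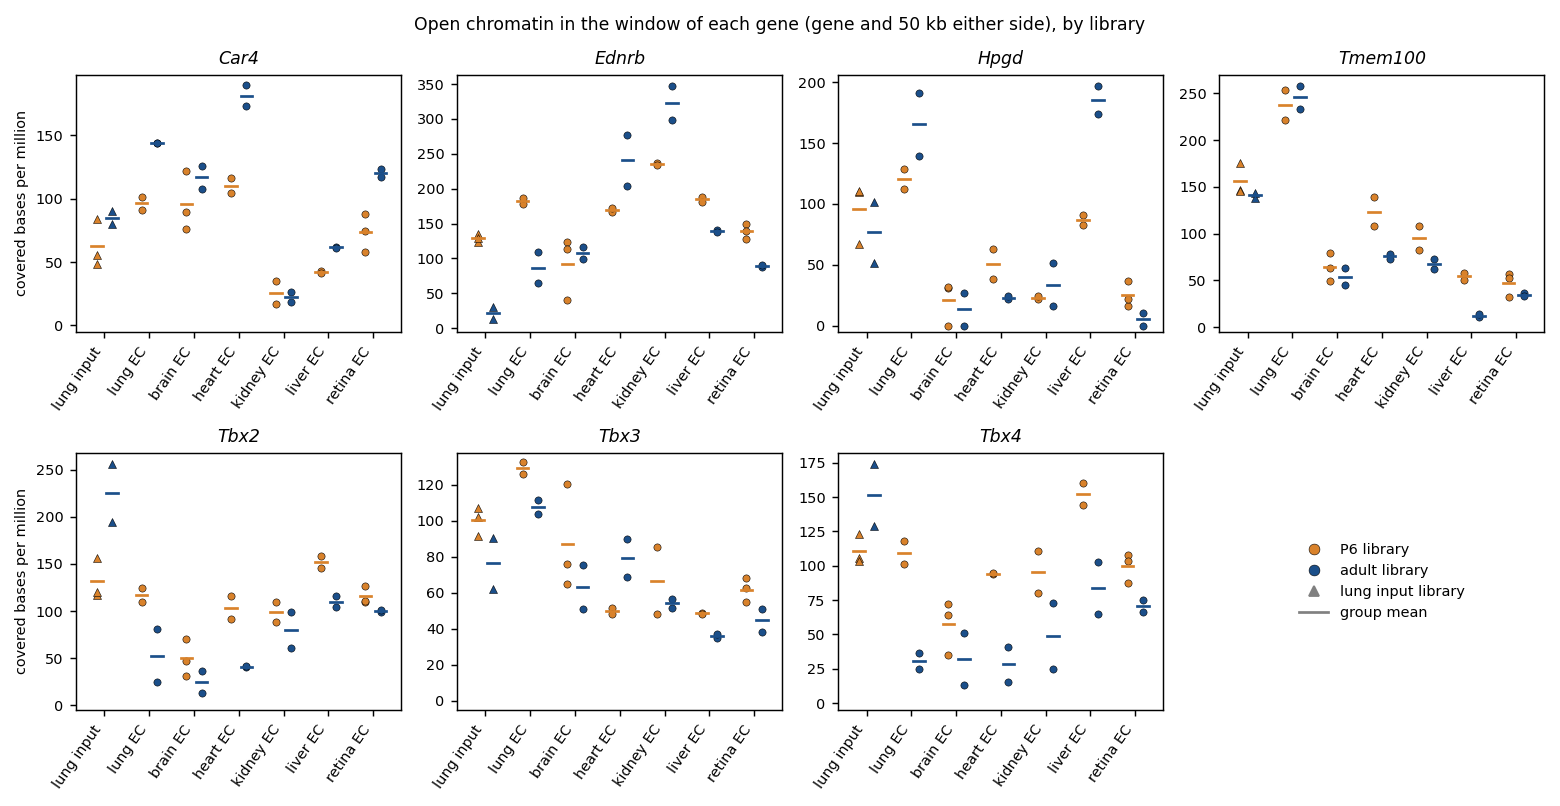
Covered bases per Mb (y axis) in the window of each gene in every adult (blue) and P6 (orange) library of lung input (triangles) and of endothelial nuclei (EC, circles) from 6 organs, with group means as lines. The 4 lung endothelial values of Tmem100 lie between 222 and 258, above every other circle and above the lung inputs.

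Hpgd and Tmem100 stood out against the mean of the other organs. Their windows were more open in lung endothelium than in the mean of the 5 other organs at both ages, by 4.69 and 4.82 times in adults and 2.95 and 3.02 times at P6 on the log2(value + 10) scale. For Hpgd adult liver was as high as adult lung, at group means of 185 and 165. Tbx3 was highest in lung at both ages by less than 2 times, Car4 was shared with heart, brain and retina, and Tbx2 and Tbx4 did not stand out in lung. Differences were tested with limma over 18809 genes, and a gene was called at a Benjamini-Hochberg adjusted p under 0.05 with a log2 difference of at least 1 in size. In adults 2 of 7 members were called higher and 0 lower, where 1.41% and 6.37% of all genes tested were. At P6 again 2 were higher and 0 lower, where 0.707% and 1.46% of genes were. The median log2 difference of the 7 was 0.72 in adults and 0.57 at P6, beside 0.08 and -0.04 over all genes tested. The list was chosen with earlier results of these data known, so these counts and medians describe the members and are no independent support.

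**Figure D2:**
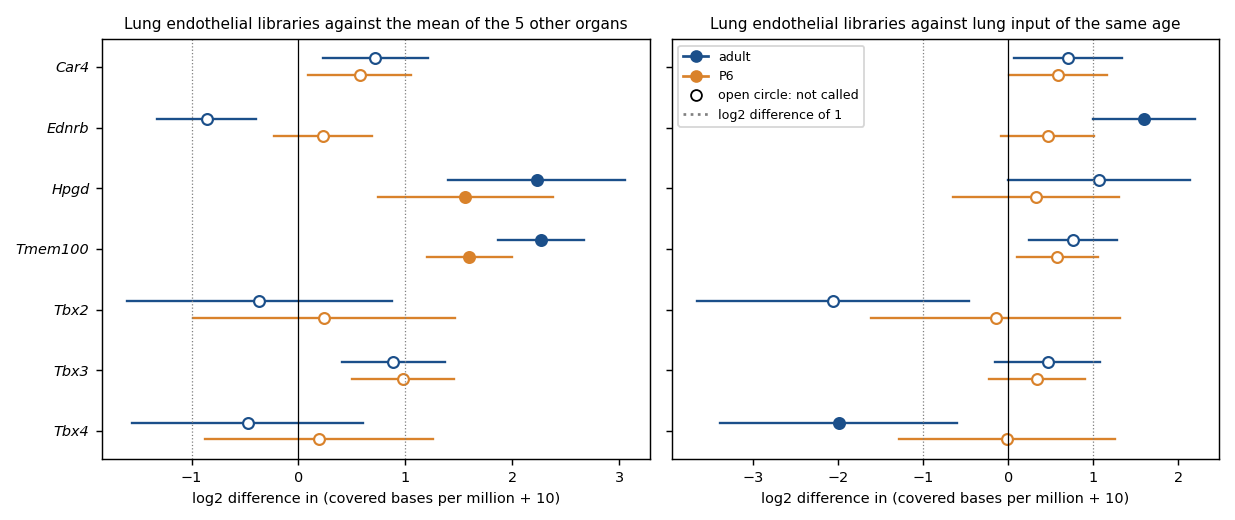
Log2 differences of covered bases per Mb + 10 (x axis) with 95% intervals for the 7 genes, of lung endothelial libraries against the mean of the 5 other organs (left) and against lung input (right), adult in blue and P6 in orange, filled where called. Filled circles on the left belong to Hpgd and Tmem100 at both ages, and on the right to adult Ednrb (1.59) and adult Tbx4 (-1.99).

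Tmem100, the ALK1 target, had 234 and 258 covered bases per Mb in the adult lung endothelial libraries and 254 and 222 at P6. The 10 adult libraries of other organs ran from 10.9 in liver through a median of 53.8 to 78.6 in heart. The 12 at P6 ran from 32.5 in retina through 60.6 to 139 in heart. No other endothelial library reached the lung values at either age. The log2 difference was 2.27 (SE 0.20, limma adjusted p = 1.32e-11) in adults and 1.60 (SE 0.20, limma adjusted p = 1.60e-06) at P6. By the number of peaks in place of covered bases the P6 difference was 0.87, under the size for a call, and the adult one 1.31. This measure, scaled to the peaks of the library, kept the pseudocount of 10, which understates differences of its smaller values. An exact two-sided permutation test over libraries gave the smallest p its partitions allow, 0.0152 of 66 in adults and 0.011 of 91 at P6. Here and for the genes below it exchanged single libraries, although libraries of an organ belong together and lung is 1 organ against 5. Its p therefore does not measure the spread between organs. Taken organ by organ, Tmem100 was called against each of the 5 others in adults, which held for 0.0691% of genes, with log2 differences from 1.58 against heart to 3.52 against liver. At P6 it was called against 4, the difference from heart being 0.90 (limma adjusted p = 0.0517), and no member was called against all 5, as were 0.0372% of genes. Lung input was itself high, at 138 and 143 in adults and 146 to 176 at P6, so the lung endothelial libraries exceeded it by only 0.76 (SE 0.26, limma adjusted p = 0.0337) and 0.58 (SE 0.24, limma adjusted p = 0.108). The level in lung endothelium did not differ detectably between ages, at a log2 difference of 0.05 with a 95% interval from -0.47 to 0.57.

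The peaks of Tmem100 and the other members were then placed along their windows. A region is a stretch in which both lung endothelial libraries of an age had a peak, and it is called lung-restricted where no endothelial library of another organ of that age had one. The 7 windows held 16 regions in adults, 3 of them lung-restricted, and 48 at P6, 9 of them lung-restricted. Over the whole genome 3.53% of such adult regions and 8.31% of P6 regions were lung-restricted. Tmem100 held 2 of the 3 and 6 of the 9. Above a gene means towards higher coordinates, and folds are the authors' own enrichment of a peak over its local background. A region 7.7 kb above Tmem100 was lung-restricted at both ages: chr11:90044235-90044860 in adults (folds 4.13 and 3.80) and chr11:90044176-90044945 at P6 (folds 5.07 and 5.48). All 5 lung inputs also had a peak there, as did 4 of 11 E12 endothelial libraries. The second adult one, chr11:90081768-90082271, lay 45.3 kb above and was matched at P6 by a region that 1 brain library shared. Of the 6 at P6, those 3.11 and 43.2 kb above the gene had no peak in any of 3 lung inputs. By contrast, a region 27.3 kb below Tmem100 had a peak in every adult endothelial library, and its P6 counterpart likewise.

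**Figure D3:**
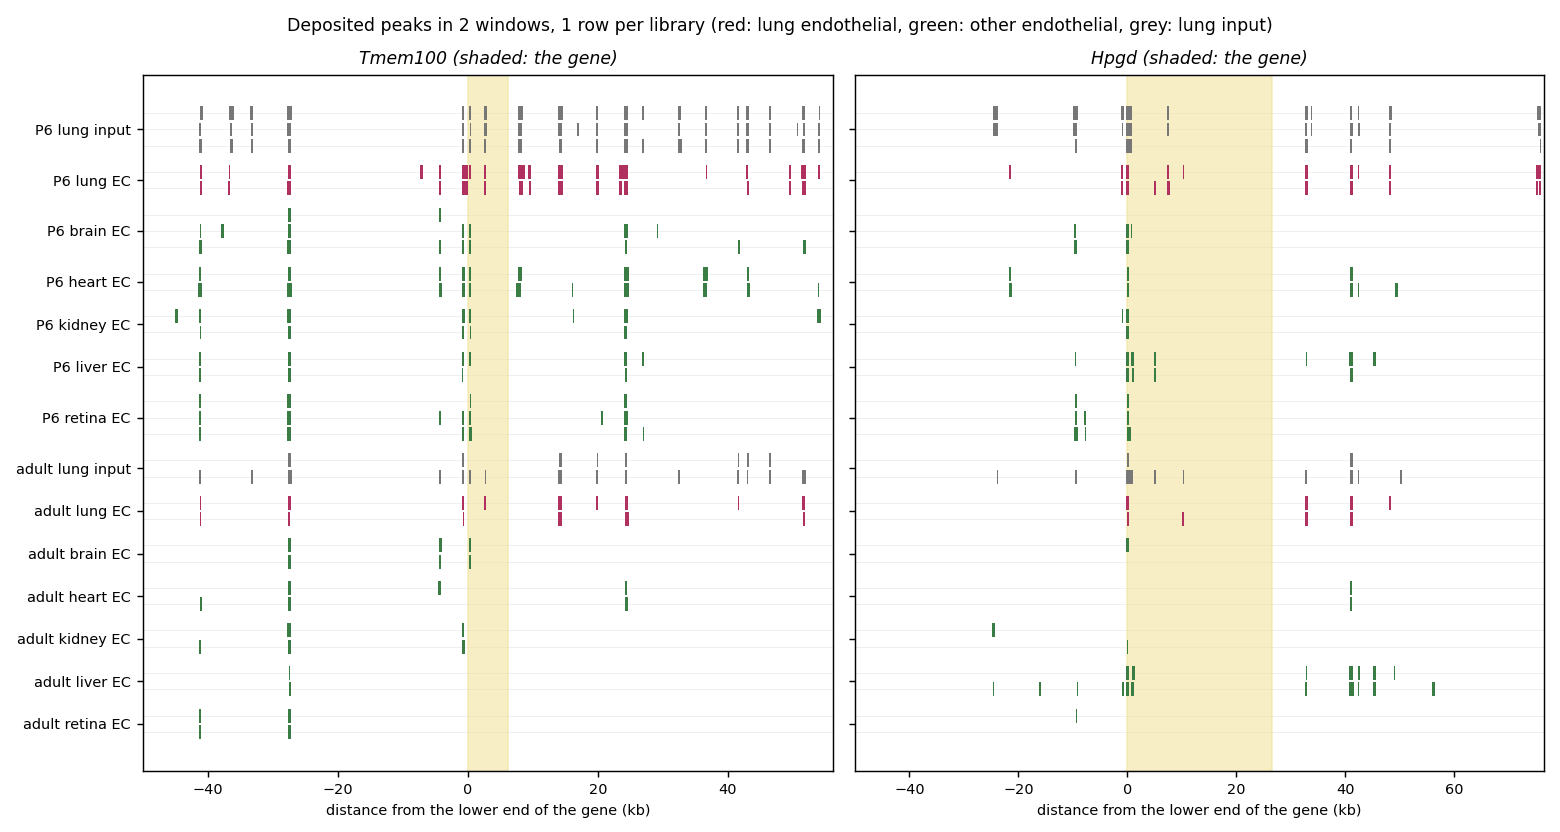
Deposited peaks (marks) by distance in kb from the lower end of Tmem100 and of Hpgd (x axis), 1 line per library grouped on the y axis: lung input in grey, lung endothelial nuclei in red, other endothelial nuclei (EC) in green. Between 10 and 20 kb from the lower end of Tmem100 the lung lines carry the restricted peak and nearly all green lines are blank. Adult liver shares the adult lung marks 6.07 and 14.3 kb above Hpgd.

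Hpgd, the prostaglandin-inactivating enzyme, had 140 and 191 covered bases per Mb in adult lung endothelium and 128 and 112 at P6. Liver was its match in adults, at 174 and 196, while the other 8 adult libraries lay between 0 and 51.1. At P6 liver followed at 82.3 and 90.5 and the other 10 libraries lay between 0 and 62.8. The lung and other libraries thus overlapped in adults, through liver, and not at P6. The log2 difference from the mean of the 5 organs was 2.23 (SE 0.41, limma adjusted p = 0.000107) in adults and 1.56 (SE 0.41, limma adjusted p = 0.0158) at P6. By the number of peaks, with the same pseudocount of 10 on these smaller values, both Hpgd differences, 0.85 in adults and 0.81 at P6, were under the size for a call. How much of the drop comes from that pseudocount was not tested. The exact two-sided permutation p for Hpgd was 0.0909 in adults and 0.044 at P6. Against liver alone it was -0.17 in adults (95% interval -1.23 to 0.90) and 0.43 at P6, so no difference from liver was detected and one of 2 times in either adult direction lies near the ends of the interval. The P6 call rested on both lung libraries: without the first the adjusted p by limma was 0.309, without the second 0.235, and over all alternatives it ran from 5.91e-05 to 0.309. Lung input had 51.1 and 102 in adults and 67.3 to 110 at P6, and the differences from it, 1.07 (limma adjusted p = 0.145) and 0.32 (limma adjusted p = 0.685), did not pass.

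In adult lung endothelium Hpgd held 3 regions, of which 1 overlapped the promoter. The region 6.07 kb above the gene, chr8:56327113-56327630, was shared with both liver libraries and no other organ, and at P6 with 1 liver library. The region 14.3 kb above was shared with heart and liver at both ages. At P6, 3 regions were lung-restricted: chr8:56301886-56302296 inside the gene, chr8:56342541-56342924 and chr8:56369488-56370471, which lie 21.5 and 48.4 kb above it. Each also had a peak in at least 2 of 3 lung inputs, and the one inside the gene had none in the 11 E12 endothelial libraries.

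Car4, the aerocyte carbonic anhydrase, had 144 and 144 covered bases per Mb in adult lung endothelium and 101 and 91.4 at P6. Heart was higher in adults, with 173 and 189, retina and brain ran from 108 to 126, liver was at 60.9 and 62.1 and kidney at 18.5 and 26.3. The P6 order was nearly the same, from 104 and 116 in heart to 16.9 and 34.7 in kidney. Lung therefore sat inside the range of the other organs. The log2 difference from their mean was 0.72 (SE 0.24, limma adjusted p = 0.0370) in adults, under the size asked for a call, and 0.57 (SE 0.24, limma adjusted p = 0.189) at P6. From heart alone it was -0.31 in adults with a limma adjusted p of 0.640. A region 2.44 kb above the gene set kidney apart: chr11:84968494-84969393, with lung folds of 5.91 and 3.88 in adults, had a peak in all 8 adult libraries of brain, heart, liver and retina and in neither from kidney, and at P6 in 10 of 12, again with none from kidney. A 273-base region inside the gene, chr11:84960904-84961176, was lung-restricted in adults (folds 3.25 and 2.83) and had a peak in 1 of 2 lung inputs, whereas 2 heart libraries shared its counterpart at P6.

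Ednrb, the endothelin receptor, was lower in adult than in P6 lung endothelium. Its window had 178 and 187 covered bases per Mb at P6 and 109 and 64.1 in adults, and the ages did not overlap. The log2 difference, adult against P6, was -1.03 (SE 0.30, limma adjusted p = 0.0103), the 1 member of 7 called in that comparison, where 12.9% of genes were, so the count is near the background. Tbx4 at -1.57 (limma adjusted p = 0.0788) and Tbx2 at -1.19 (limma adjusted p = 0.251) had larger differences and were not called. The Ednrb call between ages was lost under 4 alternatives of the processing, among them an equal number of top peaks from every list. The call ended without the second adult lung library (-0.69, limma adjusted p = 0.250) and without the first or the second P6 library (limma adjusted p = 0.0632 and 0.0654), and over all alternatives the Ednrb adjusted p ran from 0.000369 to 0.747. In adult lung the endothelial libraries exceeded input, at 13.7 and 30.9, by a log2 difference of 1.59 (SE 0.30, limma adjusted p = 0.000114). This call ended under 3 alternatives of the processing, and over all alternatives the difference ran from 0.72 to 2.89. At P6, with input between 124 and 136, the difference was 0.46 (limma adjusted p = 0.266). Kidney endothelium, not lung, held the highest values, 299 and 347 in adults and 234 and 237 at P6. Against the mean of the 5 organs adult lung was at -0.86 (SE 0.23, limma adjusted p = 0.00694), under the size for a call, and P6 lung at 0.23. The lung contrast itself shifted between ages by -1.08 (SE 0.32, limma adjusted p = 0.0578), and no member passed this test of the difference (unadjusted p under 0.05 for Ednrb and Tmem100), where 2.14% of genes did. Ednrb did pass it under 3 alternatives of the processing, among them the replicate block. Shared regions numbered 8 at P6 and 2 in adults, both of the latter inside the gene and also found in 9 of 10 adult libraries of other organs.

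Tbx3 had 111 and 103 covered bases per Mb in adult lung endothelium and 133 and 126 at P6, the highest group at both ages. The other adult libraries ran from 34.9 to 89.6 and the other P6 libraries from 48.0 to 120, with no overlap. The log2 differences were 0.89 (SE 0.24, limma adjusted p = 0.00684) and 0.98 (SE 0.23, limma adjusted p = 0.00846), just under 1 and so not called. Tbx3 passed 1 in adults with a pseudocount of 1 (1.003) or only libraries of the same kind of aligned file (1.11), and at P6 with a pseudocount of 1 (1.08), a 10 kb window (1.0095), the replicate block (1.002), or without P6 brain 1 (1.03) or P6 kidney 1 (1.05). An exact two-sided permutation test over libraries again gave the smallest possible p at each age. No Tbx3 region was lung-restricted: the region at the lower end of the gene had a peak in all 10 and all 12 libraries of other organs, and the region 28.1 kb above in 7 and 11 of them. Lung input stood at 62.1 and 90.4 in adults and 91.3 to 107 at P6.

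Tbx2 and Tbx4, neighbours that share peaks between their windows, were not raised in lung endothelium. Tbx2 had 80.5 and 24.5 covered bases per Mb in adults and 124.6 and 110 at P6, within the other organs' 13.3 to 116 and 31.3 to 158. Tbx4 had 36.8 and 24.5 in adults and 118 and 101 at P6, within 13.3 to 103 and 35.3 to 160. Liver endothelium was highest for both genes at both ages. From the mean of the other organs, adult lung differed by -0.37 for Tbx2 and -0.48 for Tbx4. With an equal number of top peaks these turned to 0.71 and 0.18, and neither was called in either setting. The adult values sat far below lung input, 194 and 256 for Tbx2 and 129 and 174 for Tbx4, without overlap. Tbx4 was called lower, with a log2 difference of -1.99 (SE 0.69, limma adjusted p = 0.0385, 0.000113 to 0.800 over the alternatives), and Tbx2 at -2.06 (SE 0.79, limma adjusted p = 0.0630) was not. The Tbx4 call ended without any 1 of the 4 libraries, at adjusted p-values by limma of 0.0567 and 0.246 without the first and the second endothelial library and 0.115 and 0.0920 without the inputs. In adult lung, endothelial against input, 2 of 7 members were thus called, where 10.6% of genes were. At P6 limma called 0, where 4.29% of genes were called (unadjusted p under 0.05 for Car4 and Tmem100). In adult lung no region in either window was shared by both endothelial libraries, against 6 and 5 at P6. Endothelial group means of both genes were lower in adults than at P6 in every organ, for Tbx4 in heart at 28.4 against 94.2. With every list cut to the same number of its strongest peaks, the median of all genes went from 0.15 to -0.04 at P6 and from 0.12 to -0.02 in adults against input, and from 0.20 to 0.04 between ages.

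Markers of other lung cells also had covered bases in lung endothelial nuclei. The 13 epithelial markers summed to 1678 to 1922 covered bases per Mb in adult lung endothelium, 1332 to 1702 in other endothelial libraries and 2138 to 2616 in lung input, with Nkx2-1, Sftpa1 and Aqp5 at 0 in both lung endothelial libraries. At P6 the sums were 1331 to 1375, 1267 to 1696 and 1550 to 1836, with Nkx2-1 and Sftpa1 at 0. The 11 mesenchymal and smooth muscle markers summed to 892 to 1018 in adult lung endothelium, 590 to 1295 in other organs and 994 to 1197 in input. At P6 they summed to 1224 to 1238, 761 to 1285 and 1191 to 1278, none at 0. Among them Fgf10 was called higher in lung than in other organs' endothelium at both ages and Tcf21 and Wt1 at P6. In adults 1 of 13 epithelial markers was called higher (Hopx, 1.76) and 1 lower (Sftpd), with a list median of -0.12, and 1 of 8 immune markers higher (Marco, 1.199), with a median of 0.21. Of all genes 1.41% were called higher and 6.37% lower in adult lung, and 0.707% and 1.46% at P6. At P6 none of either list was called, with medians of -0.16 and -0.27. The mesenchymal medians were 0.22 in adults and 0.43 at P6. The 8 immune markers summed to 847 to 898 in adult lung endothelium, 620 to 846 in other organs and 700 to 1154 in lung input, none at 0 in lung, and at P6 to 518 to 536, 531 to 868 and 558 to 699, with Itgam and Marco at 0. The part of the markers called higher in the Hpgd and Tmem100 differences was not tested.

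Members were also called in contrasts outside the lung, chosen here after their values were seen. These contrasts come from a wider set: each organ against the others, each endothelial group against its own input, and the ages. Each adjusted p covers the genes of 1 contrast only. All heart lists have a kind of aligned-file name of their own, and all kidney and liver lists have another. The heart contrast cannot be told apart from this kind. The part of the kind in the kidney and liver contrasts was not tested. Car4 was called lower in kidney than in the mean of the other organs, by -1.99 in adults (limma adjusted p = 1.47e-07), where 3.09% of genes were lower, and by -1.37 at P6 (limma adjusted p = 0.000455), where 0.952% were. In adult heart it was higher by 1.09 (limma adjusted p = 0.00116), where 2.62% were. Ednrb was higher in adult kidney by 1.33 (limma adjusted p = 6.12e-05), where 3.28% were. Hpgd was higher in adult liver by 2.43 (limma adjusted p = 1.93e-05), where 4.81% were, and Tmem100 lower there by -1.96 (limma adjusted p = 6.88e-10), where 4.17% were. In brain, Tbx3 and Tmem100 were called higher in endothelial nuclei than in brain input at E12, P6 and adult, by 1.60, 1.49 and 1.43 for Tbx3 and by 1.07, 1.17 and 1.00 for Tmem100. Brain input was 1 library at E12 and 1 in adults, so there the spread comes from the other groups and the lone sample is assumed to vary like them. Of all genes, 4.25%, 6% and 4.62% were. At E12, with no library labelled lung, Tbx3 averaged 127 covered bases per Mb in brain, 116 in trunk and 85.3 in heart endothelium.

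Over the 15 endothelial groups of organ and age, Tmem100 and Tbx3 had a Pearson correlation of 0.74 and Tbx2 and Tbx4 one of 0.87, the latter with shared peaks in overlapping windows. These groups share organs and list lengths, and the values are descriptions. Genes whose pattern was most like a member's over the 15 group means, outside its window, were Abcb1a, the P-glycoprotein pump (0.91), and Bcr for Car4, and Slfn3 (0.92), Slfn4 and Cobl for Ednrb. They were Rtp4 (0.93) and Gin1 for Hpgd, Slc24a4 (0.89), Cog6 and Cfap20dc for Tmem100 and Gprc6a (0.88), Fgf7 and 2410004P03Rik for Tbx3. For Tbx2 they were Rcan3 (0.86), Rab5if and 1700019N19Rik, and for Tbx4 Efl1 (0.93), Plekhs1 and Arhgap32.

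The pathways around the members were followed through fixed lists, to be read beside the 1.41% of all genes called higher and 6.37% called lower in adult lung, and 0.707% and 1.46% at P6. Of 6 other endothelin genes, Edn2, an endothelin ligand, was called higher in adult lung endothelium than in other organs (log2 difference 1.69, limma adjusted p = 3.98e-05), none was lower, and none was called at P6. The list's median was 0.54 in adults and 0.34 at P6. From P6 to adult lung, where 12.9% of all genes were called in either direction, Edn3 and the endothelin A receptor Ednra were called lower beside Ednrb. Of 14 other prostaglandin genes 1 was called in adult lung, upward: Slco2a1, the carrier that brings prostaglandins into the cell where Hpgd degrades them (1.51, limma adjusted p = 1.97e-06), with a list median of 0.27. At P6 none was called, Slco2a1 being at 0.66 (limma adjusted p = 0.0675). Of 14 genes of the BMP9/10 to ALK1 axis and 12 other T-box genes none was called in lung against other organs at either age. From P6 to adult lung 6 of the 12 T-box genes were called lower and none higher, with a median of -0.98 beside 0.20 over all genes: Tbx1, Tbx5, Tbx15, Tbx18, Tbr1 and Eomes, of which Tbx15, Tbx18 and Tbr1 had no covered base in either adult lung list. The adult lung lists were the shorter ones, with 30974 and 19464 peaks against 65908 and 60630. In that comparison 4 of 11 mesenchymal and 3 of 8 mural markers were also called lower (medians -0.61 and -0.58). None of 11 general endothelial genes was called. The part of list length was not tested. Between these ages no gene of the BMP9/10 list was called, and 1 prostaglandin gene was lower (Ptgis). Of 15 other carbonic anhydrases Car15 was called lower in adult lung than in other organs and none at P6, and from P6 to adult lung Car13 was called higher and Car10 and Car15 lower.

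In brain endothelium the same genes ran apart with age. Each age is 1 library, so no test was possible. Intervals are exact Poisson 95% limits on summed UMIs and cover counting error only, and the step from whole embryonic brain to cortex cannot be told apart from age. From E9.5 to adult all 7 members differed by at least 2 times, where 59.3% of 15267 genes did: Car4, Tbx3, Tbx2 and Tbx4 were higher (35% of genes) and Hpgd, Ednrb and Tmem100 lower (24.3%). The direction of Tbx2 turned in barcodes without mural genes (log2 ratio -2.04 in place of 3.43). Values given without an age run in order from the youngest library to the adult. Median UMIs per endothelial barcode were 7159, 10469, 9017, 8468 and 4896. No doublet caller was run. Libraries shared 0 to 35 endothelial barcodes by sequence, at most 0.924% of a library. The E16.5 matrix carries no gene table of its own, and its rows were read in the order of the 4 identical tables, with which its gene levels correlated at 0.857 to 0.950 (Spearman, across genes) and at no more than 0.0695 when shifted by 1 row.

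**Figure D4:**
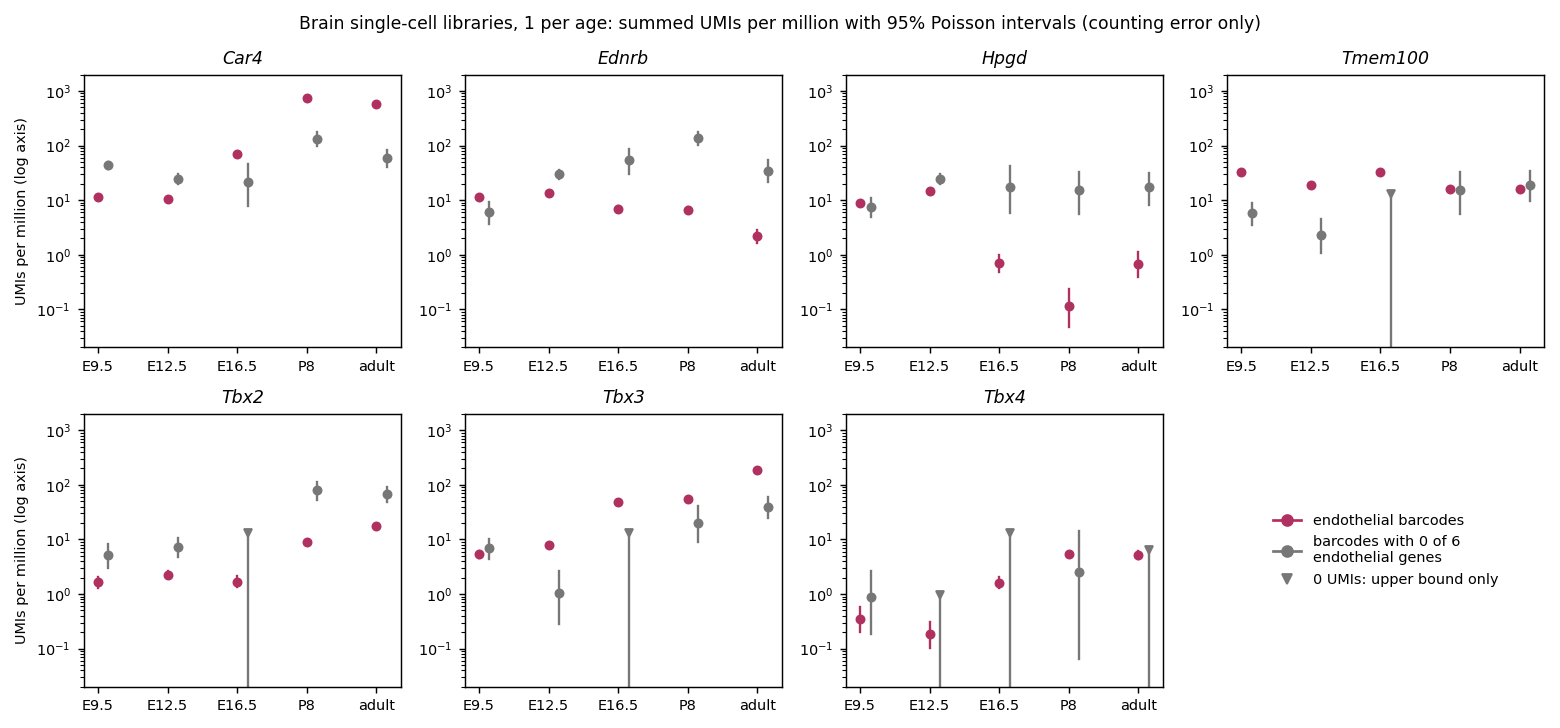
CPM (log y axis) of each gene at 5 ages (x axis) with exact 95% Poisson intervals, in endothelial barcodes (red) and in barcodes with none of the 6 endothelial genes (grey, a triangle where there was no UMI and only the upper bound is known). Car4 and Tbx3 end at 581 and 189 in adult endothelial barcodes, while Hpgd stays under 1 from E16.5 on.

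Car4 held 11.4 CPM (10.4 to 12.4), then 10.4, then 70.7, with 743 (736 to 749) at P8 and 581 (572 to 591) in adults. That is 51.1 times more in adults than at E9.5, with an interval of the ratio from 46.9 to 55.9. The share of endothelial barcodes with a Car4 UMI was 5.95%, 5.48%, 23.9%, 80.3% and 66.9%, and after thinning each barcode to 2000 UMIs 1.88%, 1.42%, 9.09%, 61.7% and 54.3%. Thinning left out 272, 0, 0, 96 and 172 shallower barcodes. Barcodes with none of the 6 endothelial genes, a background and mixture of other cells with median UMIs of 1247 to 6497, had shares of 6.62%, 5.05%, 1.96%, 22.3% and 10.2%. They numbered 1118, 554, 51, 130 and 176, of which 1073 at E9.5 and 491 at E12.5 carried at least 2 erythroid genes. At E9.5 and E12.5 the endothelial share was thus close to or under that in these other barcodes, which are shallower and include mural cells with Car4, and from E16.5 on it was higher. Among barcodes with none of the 6 but at least 2 mural (pericyte and smooth muscle) genes, Car4 already held 146 CPM at E9.5 and 367 at E12.5. Of the 839 endothelial Car4 UMIs at E12.5, 75.8% lay in the barcodes with at least 2 mural genes, 5.99% of all. Endothelial barcodes with 0 of 8 mural genes gave 10.7, 2.43, 61.2, 762 and 667, and the adult level was no lower in them.

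Tbx3 held 5.31 CPM (4.66 to 6.02), 7.78, 48.5, 55.3 and, in adults, 189 (183 to 195), a ratio of 35.6 (31.3 to 40.7). The thinned share of barcodes with a UMI was 0.949%, 1.35%, 9.01%, 11.5% and 31.9%, and the unthinned one 3.93%, 8.38%, 35.3%, 40.6% and 60.5% against 0 to 9.66% in barcodes with none of the 6 genes. In endothelial barcodes with no mural gene the levels were 4.54, 7.51, 48.2, 55.8 and 200. Barcodes of arterial character (at least 2 arterial and 0 venous genes) and of venous character (the reverse) had 177 and 193 in adults, within each other's intervals. Tbx3 was thus found in endothelial barcodes with and without mural genes alike.

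From E12.5 on most Tbx2 UMIs lay in barcodes with mural genes. Its level in all endothelial barcodes was 1.64, 2.26, 1.69, 8.92 and 17.7 CPM. In barcodes without a mural gene it was 1.65, 0.424, 0.143, 0.422 and 0.402, lower and not higher with age, the adult value resting on 5 UMIs. In adults 403 of 412 endothelial Tbx2 UMIs (97.8%) lay in the 12.4% of barcodes with at least 2 mural genes, and at P8 513 of 539 (95.2%). Mural barcodes with none of the 6 endothelial genes had 278 at P8 and 276 in adults. The 8 mural markers summed to 163, 72.5, 136, 542 and 1329 CPM in all endothelial barcodes, none at 0. Barcodes with at least 2 of them held a median of 11411 UMIs in adults against 4434 in those with none, and whether they are joined cells was not tested. Tbx4 was scarce, at 0.350, 0.187, 1.62, 5.36 and 5.20, and kept this course without mural genes (0.422, 0.163, 1.49, 5.49 and 5.31).

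**Figure D5:**
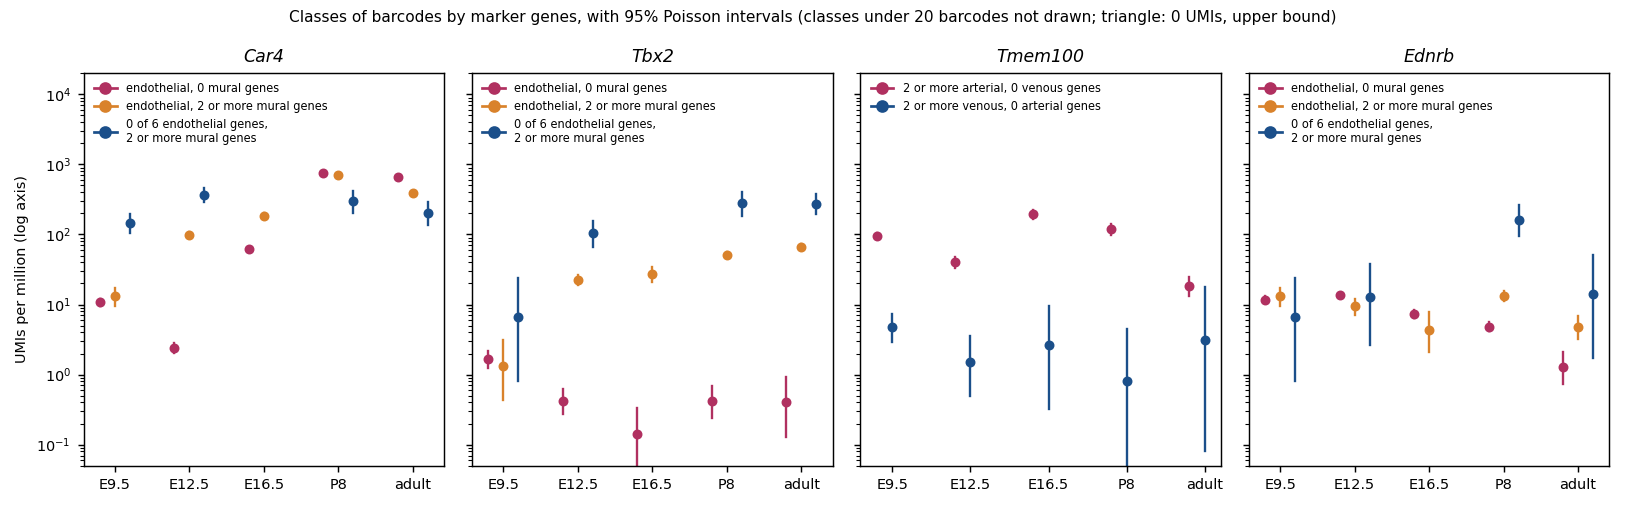
CPM (log y axis) of Car4, Tbx2, Tmem100 and Ednrb by age (x axis) in classes of barcodes set by marker genes, with exact 95% Poisson intervals and classes under 20 barcodes left out. Tbx2 lies under 2 at every age in endothelial barcodes without mural genes and between 22.7 and 66.8 from E12.5 on in those with 2 or more, and Tmem100 is higher in arterial than in venous barcodes at E9.5 to P8.

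Tmem100 was higher in arterial barcodes. Barcodes with at least 2 arterial and 0 venous genes held 96.2 CPM (89.2 to 104) at E9.5 against 4.79 (2.93 to 7.40) in the venous ones. At E12.5 the values were 40.2 and 1.51, at E16.5 195 and 2.68 and at P8 118 and 0.816, the last pair of venous values resting on 2 and 1 UMIs. In adults the arterial level was 18.3 (13.4 to 24.5) and the venous 3.17 from 1 UMI (0.0801 to 17.6), which overlap. Over all endothelial barcodes it held 32.4, 18.8, 33.1, 16.03 and 15.8, and adult to E9.5 made a ratio of 0.488 (0.434 to 0.547). This ratio is at the edge of the 2-fold rule and passed out of it with a mitochondrial share of at most 5% (log2 ratio -0.31), with at least 2 of the 6 genes required (-0.93) and in barcodes without mural genes (-0.58). It was stronger with each barcode thinned to 2000 UMIs, at 38.3 and 9.39 CPM (log2 ratio -2.03), as the mean over barcodes (-2.15), and in barcodes with 0 mural and 0 neural genes (-2.71). The adult level was thus below that at E9.5 under each of the settings tried, by log2 ratios from -0.31 to -2.71. Endothelial barcodes with at least 2 of 7 genes listed as neural, 9.90%, 17.1%, 11.9%, 8.497% and 21.8% of all, held 27.2%, 63.3%, 50.5%, 73.7% and 83.1% of the Tmem100 UMIs. In barcodes with 0 mural and 0 neural genes the level was 20.0, 3.63, 7.95, 1.46 and 3.07. The listed genes summed to 177 to 649 CPM over endothelial barcodes, in adults nearly all from Nes (328) and Stmn2 (319), with Sox2 at 0.430, Tubb3 at 0.172 and Neurod1 and Dcx at 0. Their part in the arterial difference was not tested. Car4 had the opposite leaning, with 194 in arterial and 791 in venous barcodes at P8 and 220 and 943 in adults.

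Hpgd was near 0 in brain endothelial barcodes from E16.5 on. It held 8.79 CPM (7.95 to 9.69), 14.9 (14.1 to 15.8), 0.706, 0.116 (7 UMIs) and, in adults, 0.688 (16 UMIs). The shares of barcodes with a UMI, 5.10% and 11.9% at the first ages, stood beside 1.97% and 10.8% in barcodes with none of the 6 genes, so E12.5 is close to that level. These other barcodes were shallower, with median UMIs of 1769 against 7159 at E9.5 and 6497 against 10469 at E12.5. A shallow barcode shows a gene less often, so the E9.5 gap is not matched for depth. All 16 adult UMIs lay in barcodes with at least 2 mural genes. The 2172 adult barcodes without a mural gene had none, which allows up to 0.241 CPM. Non-endothelial barcodes with at least 2 microglia genes carried 20.1, 42.7, 18.5, 108 and 95.8, from 2 to 87 UMIs.

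Ednrb was low and became lower, at 11.5, 13.3, 6.97, 6.72 and 2.19 CPM, a ratio of 0.191 (0.1402 to 0.255) from 51 adult UMIs. Its share of endothelial barcodes was 7.34% at E9.5 against 1.70% in barcodes with none of the 6 genes, but from E12.5 on it was 11.3%, 4.33%, 3.01% and 0.983% against 9.39%, 15.7%, 11.5% and 4.55%, close to or under that level. The other barcodes were shallower at every age, at E9.5 with a median of 1769 UMIs against 7159, so these shares are not matched for depth. At E16.5, P8 and adult they numbered only 51, 130 and 176. Non-endothelial barcodes with at least 2 neural genes, 20, 8 and 9 barcodes, carried 205 at E12.5, 385 at P8 and 170 in adults. The lists around the members are given by size only, beside a median log2 ratio of 0.31 over all genes, of which 35% were at least 2 times higher in adults and 24.3% lower. Of 12 genes of the BMP9/10 to ALK1 axis 9 were at least 2 times higher in adults and 0 lower, with a median of 2.29: Id1, an inhibitor of differentiation, was at 150 and 1613 CPM at E9.5 and adult, and the receptor Bmpr2 at 45.3 and 693. Of 5 other endothelin genes 4 were higher and 1 lower, with a median of 2.92, the ligand Edn3 at 1.202 and 169. Of 13 prostaglandin genes 8 were higher and 2 lower, of 11 carbonic anhydrases 5 and 5 with a median of -0.11, and of 7 other T-box genes 4 and 2. Marker lists of other kinds rose as well: 7 of 8 mural genes (median 4.98), 7 of 7 glia genes (2.39) and 6 of 11 general endothelial genes (1.64) were higher, with 0 lower. Of 6 neural genes 2 were higher and 4 lower.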

How the data were processed

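The authors called peaks with MACS2 2.1.2 in broad mode, separately in each library and without a control, per the file headers. Bowtie2, SAMtools 1.13 and mm10 stand in the submitters' processing notes. The deposited peak lists give the pileup signal, a fold as a ratio over local background and −log10 q-values. The deposited single-cell matrices hold raw UMI counts, made with Cell Ranger per the submitters' processing notes. The RNA-seq tables were not used here. Bases of each gene ± 50 kb inside peaks, per Mb of peaks of the library, were tested with limma 3.58.1 (trend, robust, R 4.3.3) on log2(value + 10), which understates changes of low values, with 1 mean for each of 30 groups. Genes with a mean of at least 10 were tested. On simulated data, 87.5 to 95.5% of 200 genes changed 4-fold were recovered, and 0.529 to 5.41% of calls were false. There each gene had the same mean in all groups apart from the change, with normal noise. These rates therefore do not cover smaller differences, or false calls from list length or the kind of file. Counting limits and a 3-UMI floor cover counting error only. All 7 members are named by rule, with the 3 genes of most similar pattern (some are not reported here) and at most 2 called genes per list and direction. Members and lists were chosen with earlier results of these data known. Alternatives changed the pseudocount, window, peaks, scaling, libraries, replicate block, barcode filters and thinning. The 66 lists have 4 kinds of aligned-file names, read from the names of the lists. The lung endothelial libraries share theirs with the retina endothelial and 2 P6 brain libraries, and adult lung input 1 has another. All heart lists have a kind of their own, and all kidney and liver lists have another. Both adult brain endothelial lists also have a kind unlike that of lung. Differences of lung endothelium from heart, kidney and liver at both ages therefore cannot be told apart from the kind. In adults the same holds for brain.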

Additional observations from a re-analysis of the deposited data

How the results depend on the processing

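Tmem100 in adult lung endothelium against the other organs was called under every alternative that keeps the mean of the organs, with a log2 difference of 1.31 to 2.65. Counts of members called moved by more than 1.5 times as follows, beside 2 for lung against other organs at each age, 2 for adult and 0 for P6 lung against input, 1 between ages and 0 for the difference between ages. With a pseudocount of 1 adult against input gave 1, and with 50 the P6 count was 1 and the count between ages 0. With peaks of −log10 q at least 3 adult against input gave 1, between ages 2 and the difference 1. With an equal number of top peaks P6 against input gave 2, between ages 0, and 4 regions at P6 were lung-restricted. By number of peaks the counts were 1 in adults (Tmem100), 0 at P6, 0 against adult input and 0 between ages. The pseudocount stayed at 10 there though the values are smaller, which understates differences. With endothelial libraries alone in the fit, 2 were called between ages and 1 for the difference. Called against each organ singly, 1 remained in adults and 0 at P6. The exact permutation test gave 1 in adults, 0 against adult input, and 0 between ages, where 2 libraries against 2 cannot pass in either. Leave-one-out gave 2 to 3 in adults (Ednrb added, as lower, without adult lung 1), 1 to 3 at P6 (Tmem100 alone without P6 lung 1 or 2, Tbx3 added without P6 brain 1 or P6 kidney 1), 1 to 2 against adult input, 0 to 1 between ages and 0 to 1 for the difference (Ednrb, without P6 brain 2 or 3, adult heart 1 or adult lung 1). The cause was not tested.

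The replicate block moved the difference between ages from 0 to 1 (Ednrb, adjusted p = 0.0460 by limma) and the P6 count against other organs from 2 to 3 (Tbx3), and changed no other count. Deviations of lung endothelial and input libraries of equal number correlated at -0.35 in adults and at -0.09 and 0.18 at P6. With 2 adult libraries of each kind the deviations mirror each other, so both adult numbers give the same value. These values cannot decide whether the numbers pair the libraries. Crossing the adult numbers, added after seeing the data, gave 2 members called, as without a block. In single cells, 6 or 7 members stayed at least 2 times apart under every setting. In barcodes without mural genes, also added after seeing the data, Tbx2 turned to a log2 ratio of -2.04 from 3.43, and with neural genes left out as well it was 0.79. The 2 adult lung endothelial lists are short (30974 and 19464 peaks), the shorter one from more tags than the longer. Hpgd rests on 16 UMIs in adults and Tbx4 on 16 at E9.5.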

Other observations

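Of 10 other aerocyte genes, 2 were called higher in adult lung endothelium than in other organs (Nckap5 2.01 and Pmp22 1.02 on the log2 scale) and 2 lower (Apln -2.21 and Chst1 -1.64), with a median of 0.03 beside 0.08 over all genes, of which 1.41% were called higher and 6.37% lower. At P6 2 were higher (Nckap5 1.44 and Fibin 1.38) and none lower, with a median of 0.41 beside -0.04, where 0.707% and 1.46% of genes were called. From P6 to adult lung 1 aerocyte gene was called higher and 5 lower, among them Apln, the apelin ligand, at -2.75, with a list median of -0.82 beside 0.20 over all genes, of which 12.9% were called. Other lists fell between these ages too, with 4 of 11 mesenchymal, 3 of 8 mural and 4 of 6 brain capillary markers called lower. The median of the brain capillary markers was -1.49. None of 9 general capillary genes was called between these ages. Against other organs 1 of them was higher in adult lung (Hilpda 1.07), with a median of 0.53, and none was called at P6. Against adult lung input, where 10.6% of genes were called in either direction, 3 general capillary genes were called higher: Tspan7, Ptprb and the apelin receptor Aplnr. There 1 aerocyte gene was higher (Kdr) and 4 lower (Emp2, Fibin, Chst1 and Sirpa), with an aerocyte median of -0.40. Against P6 lung input, where 4.29% of genes were called in either direction, 1 aerocyte gene was higher (Rprml) and none lower, with a median of 0.33. No general capillary gene was called there.

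In brain endothelial barcodes Apln held 27.4, 141, 196 and 304 CPM from the youngest library to P8 and 0.344 in adults. Slco2a1, the prostaglandin carrier, peaked at E16.5 with 91.7, against 0.153 at E9.5 and 2.62 in adults. Plvap, the diaphragm protein of fenestrated vessels, went from 386 at E9.5 to 2.54 in adults. Each age is 1 library, so these are values without a test.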
